A study of Mus musculus with 6 samples.

Results

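The genes described here are the kinesins, the motor proteins that walk along microtubules, in mouse cortical primary neuronal cultures treated with NGPF2. They were chosen by symbol (Kif, a number and at most a letter from a to c) and by a mean of at least 10 normalized counts over the 6 libraries. Of 36 such symbols in the deposited table, 35 passed, out of 16653 genes that passed the same minimum and 31245 in the table. Kif19a lay just inside the minimum, with a mean of 17.2 normalized counts, and Kif28 just outside it, with 3.95. Lists based on textbook function placed 15 of the 35 as transport kinesins and 11 as mitotic kinesins. The other 9 act mainly at cilia, on microtubule ends or in signalling, and are called other kinesins. A 12th gene on the mitotic list, Kif2b, had no entry among the genes analysed.

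Cortices of pups at postnatal day 1 were dissociated and cultured, and at day 12 to 13 in vitro the cultures received NGPF2 at 1.5 ng/ml or the vehicle, PBS, for 2 h. The labels do not say what NGPF2 is. Poly(A) RNA was sequenced from 3 NGPF2 and 3 vehicle libraries, and the series describes them as 3 pairs from separate experiments. The sources used here name no strain, sex or number of pups per culture, and no glial or mitotic inhibitor is named in the culture protocol.

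Kinesins share a motor domain that burns ATP, and their tails decide what they do. In neurons, kinesin-1, kinesin-2 and kinesin-3 motors carry vesicles, mitochondria and proteins from the cell body into axons and dendrites. In dividing cells, another set builds the bipolar spindle, moves and aligns chromosomes and completes cytokinesis. Neurons have left the cell cycle, and these genes are typical of dividing cells such as glia and progenitors. A few mitotic kinesins, among them Kif11, Kif15 and Kif23, are also made in post-mitotic neurons, where they restrain or organise microtubules.

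Library totals ran from 17478070 to 45193691 counts. The sample titles set replicates 2 and 3 of both groups apart from replicate 1 by the stem of the library name, and the libraries are treated here as 2 batches on that ground. No label says what the stem stands for. Across the 16653 genes, the NGPF2 minus vehicle difference had SDs of 0.43, 0.92 and 0.97 (log2) in pairs 1, 2 and 3, with more than a 2-fold difference in 405, 2564 and 2650 of them. General neuron markers (7 of 7 kept) summed to between 139150 and 202287 normalized counts in NGPF2 libraries and between 138893 and 167804 in vehicle libraries, so the labelled cell type was well represented. Endothelial markers summed to at most 136 in any library. Nothing in the labels says that libraries of one batch came from separate animals, so p-values within replicates 2 and 3 measure the spread between these libraries, which may be technical.

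Over all 3 pairs no kinesin passed the test. With limma, the replicate number as a block and Benjamini-Hochberg adjustment, 0 of 35 members had an adjusted p under 0.05, beside 0.0% of all genes kept, and the smallest adjusted p among the members was 0.379. At an unadjusted p under 0.05, 5 members and 2166 of all genes passed, and limma-voom on the recovered counts also called none. Within replicates 2 and 3, by contrast, 11 of 35 members passed limma, beside 21.1% of all genes kept. Of these, 2 were higher with NGPF2, beside a background of 9.77%, and 9 were lower, beside 11.3%. That comparison sets 2 NGPF2 libraries against 2 vehicle libraries, and all 11 calls were lost when either vehicle 2 or vehicle 3 was left out. With no minimum on the counts limma called 2 of the 35 (Kif11 and Kif1c), and with no mean-variance trend 4 (Kif11, Kif15, Kif2c and Kif1c). Without vehicle 2 or vehicle 3 limma called 0 of all genes as well, with 3610 genes (without vehicle 2) or 3623 (without vehicle 3) at an unadjusted p under 0.05.

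The mitotic and transport kinesins parted in replicates 2 and 3 and not in replicate 1. The median NGPF2 minus vehicle difference of the 11 mitotic kinesins was 0.17 (log2) in pair 1, -1.33 in pair 2 and -1.06 in pair 3. For the 15 transport kinesins it was 0.05, 0.15 and -0.04 in the same pairs. The 9 other kinesins had medians of -0.05, -0.36 and -0.22, and all genes kept had medians within 0.01 of 0. All 11 mitotic kinesins were lower in the NGPF2 library of pair 2 and of pair 3, whereas in pair 1 there were 5 lower and 6 higher. The smallest of these gaps in pairs 2 and 3 was -0.02 (log2), for Kif14 in pair 2. The difference between the batches was itself tested for each gene, with a batch by treatment term in limma, and it passed for Kif1c alone among the 35 members, beside 2.49% of all genes (0.721% higher and 1.77% lower), so for the 11 mitotic kinesins the contrast between batches is a description.

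**Figure D1:**
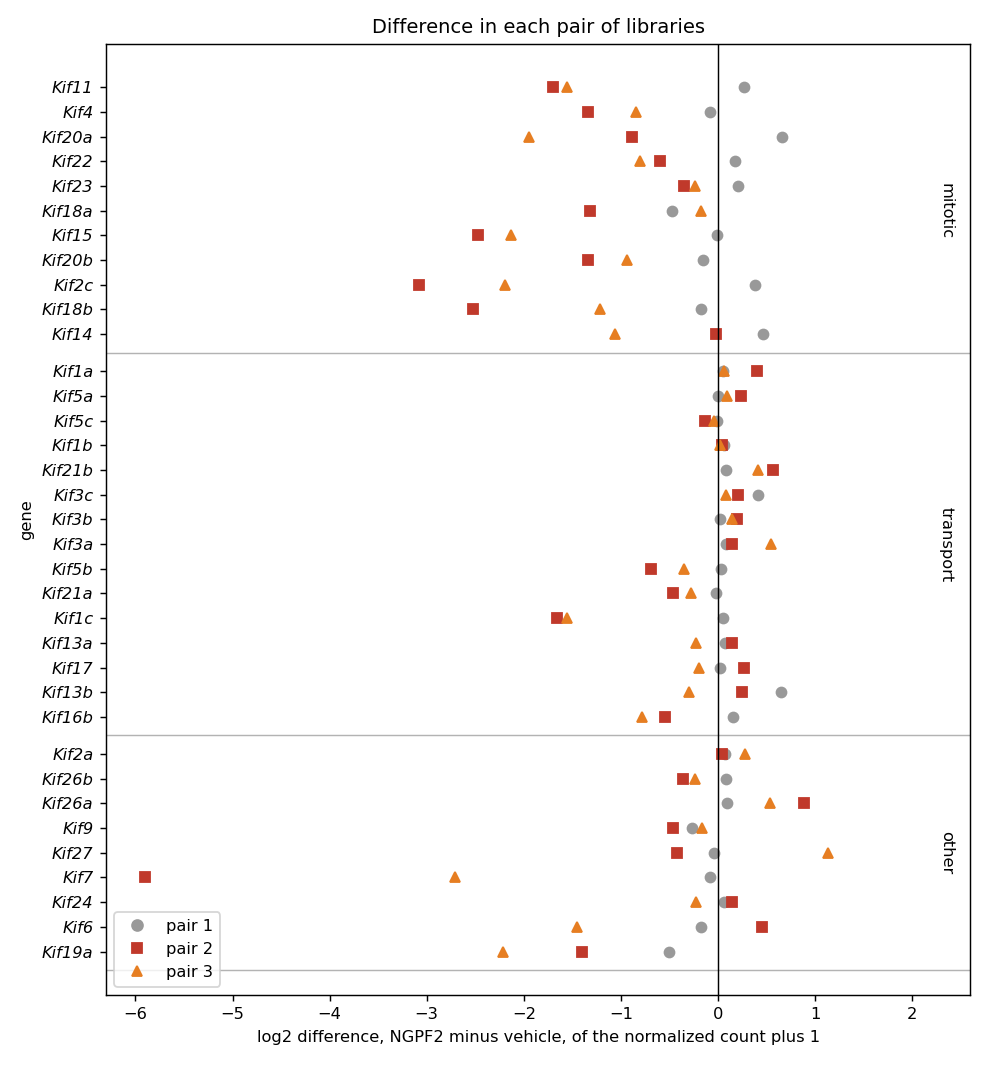
NGPF2 minus vehicle difference of log2(normalized count plus 1) (horizontal axis) for each kinesin (vertical axis, grouped by role), with 1 symbol for each of pairs 1, 2 and 3 and a line at 0. All 11 mitotic kinesins lie left of 0 in pairs 2 and 3, with medians of -1.33 and -1.06, whereas most transport kinesins lie near 0, with medians of 0.15 and -0.04.

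Among the 11 mitotic kinesins, 5 fell within replicates 2 and 3 (Kif11, Kif15, Kif2c, Kif4 and Kif18b), beside 11.3% of all genes, and 0 rose. The count was 1 with no minimum and 3 with no mean-variance trend or with quantile scaling. The 4 libraries of that batch did not overlap between groups for any of the 11, with NGPF2 lower each time, beside 32.7% of all genes kept. For Kif14 the groups nearly met, at 29.9 normalized counts in NGPF2 2 against 30.4 in vehicle 2. Over all 6 libraries the NGPF2 values lay below the vehicle values for 3 of the 11 (Kif15, Kif20b and Kif18b), beside 5.89%. For Kif15 the groups nearly met, at 40.9 normalized counts in NGPF2 1 against 41.3 in vehicle 1, from 64 counts in each. Levels were low throughout: summed over the 11 genes, NGPF2 libraries 1, 2 and 3 held 626, 383 and 379 normalized counts, against 586, 898 and 839.7 in vehicle libraries 1, 2 and 3.

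Kif11, the tetrameric motor that pushes spindle poles apart, had 102, 46.6 and 44.9 normalized counts in NGPF2 1, 2 and 3, against 84.5, 154 and 134 in vehicle 1, 2 and 3. In replicates 2 and 3 both NGPF2 libraries were far below both vehicle libraries, while in replicate 1 the NGPF2 library was the higher one. Within replicates 2 and 3 it was 3.09-fold lower with NGPF2 (log2 difference -1.63, SE 0.21, limma adjusted p = 0.00909). Kif15, which helps Kif11 keep the spindle bipolar, had 40.9, 10.8 and 16.2 normalized counts in NGPF2 1, 2 and 3, against 41.3, 64.3 and 73.9 in vehicle 1, 2 and 3. The 2 libraries of pair 1 were nearly equal, and the gap in the other pairs was 4.93-fold (log2 difference -2.30, SE 0.34, limma adjusted p = 0.0127). Over all 3 pairs Kif11 and Kif15 had adjusted p-values no lower than 0.379.

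Kif2c, a microtubule depolymerase at centromeres that frees wrongly attached chromosomes, showed the widest gap of the 11. It had 25.6, 7.17 and 14.4 normalized counts in NGPF2 1, 2 and 3, against 19.3, 67.9 and 69.2 in vehicle 1, 2 and 3. Within replicates 2 and 3 it was 6.21-fold lower with NGPF2 (log2 difference -2.63, SE 0.42, limma adjusted p = 0.015). The low libraries rest on few reads, 6 and 8 counts in NGPF2 2 and 3, against 76 and 58 in vehicle 2 and 3. Its vehicle level was also the one that differed most between batches, so the gap opened against a higher vehicle level in replicates 2 and 3 than in replicate 1.

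Kif18b, which shortens astral microtubules, and Kif4, a chromokinesin that works with Prc1 at the spindle midzone, had smaller differences than Kif2c and Kif15. Kif18b had 32, 8.37 and 17.9 normalized counts in NGPF2 1, 2 and 3, against 36.1, 52.7 and 42.9 in vehicle 1, 2 and 3, and was 3.65-fold lower with NGPF2 within replicates 2 and 3 (log2 difference -1.87, SE 0.46, limma adjusted p = 0.0454). Kif4 had 130.5, 45.4 and 44.9 normalized counts in NGPF2 1, 2 and 3, against 139, 116 and 81.1 in vehicle 1, 2 and 3, and was 2.12-fold lower (log2 difference -1.09, SE 0.27, limma adjusted p = 0.0461). Both calls sit close to the threshold and were lost without NGPF2 2 and with quantile scaling, and the call on Kif4 also without NGPF2 3. Exons of Kif4 overlap those of Pdzd11 on the other strand, and whether counting used strand is not given in the sources used here, which makes its count uncertain.

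The remaining 6 mitotic kinesins did not pass. Kif20a, needed for cytokinesis, came closest, with 96.6, 70.5 and 34.1 normalized counts in NGPF2 1, 2 and 3, against 60.6, 131 and 135 in vehicle 1, 2 and 3. Its log2 difference within replicates 2 and 3 was -1.42 (SE 0.38, limma adjusted p = 0.0556), and its exons overlap those of Cdc23 on the other strand. Kif20a passed with the replicate number as a block (limma adjusted p = 0.0309), a pseudocount of 5, a minimum of 50, library total scaling or voom. It did not pass with a pseudocount of 0.5, no minimum, quantile scaling, median centring or no mean-variance trend. Kif20b, another cytokinesis motor, had a log2 difference of -1.14 (SE 0.30, limma adjusted p = 0.0525) with 28.8, 25.1 and 25.1 normalized counts in NGPF2 1, 2 and 3, against 32.2, 65.2 and 48.9 in vehicle 1, 2 and 3. It passed with a pseudocount of 5 and with library total scaling. Kif22, a chromokinesin, had 58.2, 57.4 and 50.3 normalized counts in NGPF2 1, 2 and 3, against 51.6, 87.5 and 88.3 in vehicle 1, 2 and 3. The NGPF2 libraries 2 and 3 were again the lower ones, but the difference, -0.70 on the log2 scale (SE 0.22), gave an adjusted p of 0.0826 with limma. Kif18a, which aligns chromosomes, Kif14, a partner of citron kinase in cytokinesis, and Kif23, the central spindle motor that pairs with Racgap1, had log2 differences of -0.75, -0.54 and -0.29, with SEs of 0.44, 0.44 and 0.22. These 3 genes had between 14.4 and 73.6 normalized counts in NGPF2 libraries and between 12.3 and 87.1 in vehicle libraries.

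**Figure D2:**
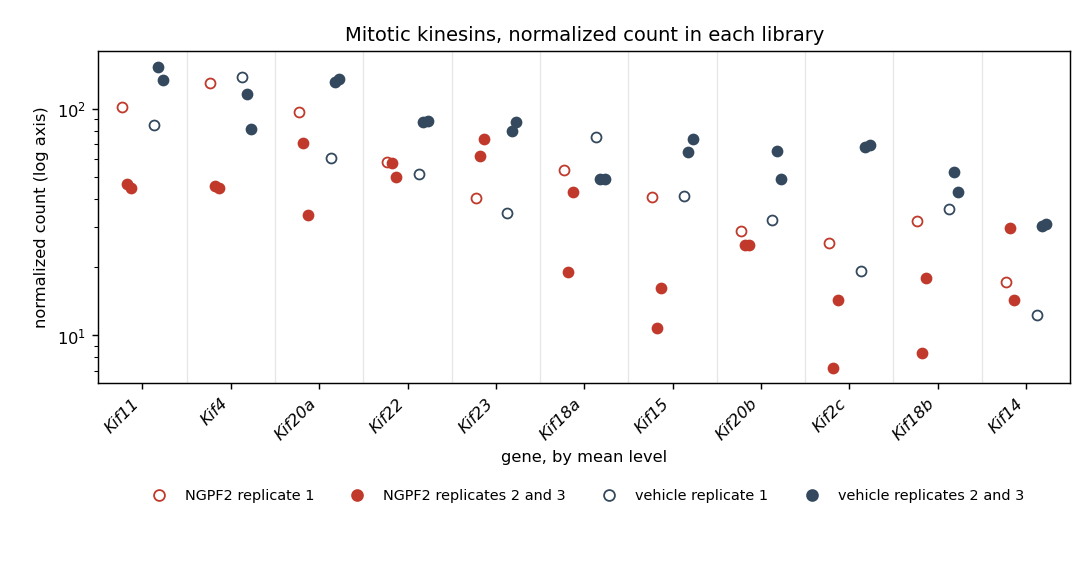
Normalized counts (log axis) of the 11 mitotic kinesins in each library, NGPF2 left of vehicle, with open circles for replicate 1 and filled circles for replicates 2 and 3. Among the filled circles every NGPF2 value lies below both vehicle values, as for Kif11 with 46.6 and 44.9 in NGPF2 libraries and 154 and 134 in vehicle libraries. For Kif14 the NGPF2 2 and vehicle 2 values, 29.9 and 30.4, nearly meet.

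Promoter windows were read because all 11 mitotic kinesins were lower in pairs 2 and 3. The windows, from RefSeq on GRCm38.p6, run from 250 bases before to 50 bases after a RefSeq start and were at hand for 29 of the 35 members. In 5 genes (Kif14, Kif2c, Kif27, Kif17 and one window of Kif1a) that start lies more than 1000 bases inside the outer bound of the gene in the annotation used here for lengths. Promoters of genes read out late in the cell cycle often carry a cell cycle homology region (searched as TTTGAA or TTCGAA on both strands), bound by the DREAM and B-Myb complexes, with CCAAT boxes, the sites of NF-Y (searched as CCAAT on both strands), nearby; these motifs do not overlap one another. Windows of 3 mitotic kinesins that fell within replicates 2 and 3 and of Kif1c, the transport kinesin with the smallest p there, are shown to set the letters side by side. Capitals mark a match to either motif on either strand.
Kif11: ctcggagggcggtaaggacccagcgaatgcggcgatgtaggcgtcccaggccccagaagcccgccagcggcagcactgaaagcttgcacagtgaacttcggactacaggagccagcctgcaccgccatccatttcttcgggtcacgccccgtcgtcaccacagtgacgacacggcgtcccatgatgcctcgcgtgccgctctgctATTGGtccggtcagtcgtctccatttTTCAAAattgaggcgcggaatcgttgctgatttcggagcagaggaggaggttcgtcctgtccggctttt
Kif15: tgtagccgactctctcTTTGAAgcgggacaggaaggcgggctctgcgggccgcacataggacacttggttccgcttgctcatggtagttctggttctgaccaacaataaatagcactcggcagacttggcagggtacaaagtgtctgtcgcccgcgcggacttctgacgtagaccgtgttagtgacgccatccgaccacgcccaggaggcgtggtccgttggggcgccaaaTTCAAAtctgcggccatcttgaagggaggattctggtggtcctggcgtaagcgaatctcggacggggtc
Kif18b: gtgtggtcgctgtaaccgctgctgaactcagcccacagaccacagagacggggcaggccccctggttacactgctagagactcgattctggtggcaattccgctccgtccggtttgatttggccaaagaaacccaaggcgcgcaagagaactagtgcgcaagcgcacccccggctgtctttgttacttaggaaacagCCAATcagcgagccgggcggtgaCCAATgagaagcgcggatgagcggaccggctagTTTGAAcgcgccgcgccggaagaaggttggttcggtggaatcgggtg
Kif1c: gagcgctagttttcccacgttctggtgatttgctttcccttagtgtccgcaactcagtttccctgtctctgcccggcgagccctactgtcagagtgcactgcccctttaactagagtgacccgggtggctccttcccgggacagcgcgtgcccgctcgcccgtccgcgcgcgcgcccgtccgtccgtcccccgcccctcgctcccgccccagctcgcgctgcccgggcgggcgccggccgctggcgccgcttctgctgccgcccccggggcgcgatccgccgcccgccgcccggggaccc
These are Kif11 at chr19:37376132-37376431 (plus strand), Kif15 at chr9:122950831-122951130 (plus strand), Kif18b at chr11:102925075-102925374 (minus strand) and Kif1c at chr11:70700298-70700597 (plus strand). Counting the first base of the gene as 1, Kif11 has its cell cycle homology match at -19 and its CCAAT match at -45, and Kif15 has matches of the first kind at -234 and -19. Kif18b has CCAAT matches at -53 and -30 and a cell cycle homology match at 4, and Kif1c has neither motif in its window.

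Among the 10 mitotic kinesins with a window, 9 held the cell cycle homology motif (90% of genes, Kif18a being the exception), against 1 of 11 transport kinesins (9.09%, Kif1a, in one of its windows) and 3 of 8 other kinesins (37.5%, Kif24, Kif26b and Kif27). Of all 32851 windows in the set, 6316 held it (19.2%). In 7 of the mitotic kinesins (Kif11, Kif15, Kif18b, Kif20b, Kif22, Kif23 and Kif4) a match lay within 30 bases of the start, beside 3.40% of all windows. The distance of 30 bases was not fixed in advance with the motifs, and no other distance is given. CCAAT was found in 6 of 10 mitotic, 3 of 11 transport and 4 of 8 other kinesins, beside 37.4% of all windows, and both motifs together in 6 of 10, 0 of 11 and 3 of 8, beside 7.52%. Without the windows more than 1000 bases inside the gene, the cell cycle homology motif was in 7 of 8 mitotic, 0 of 10 transport and 2 of 7 other kinesins. A match describes letters in the window and is not evidence of binding. Kif23, with a match near its start, and Kif18a, with none, did not pass within replicates 2 and 3. Their log2 differences were -0.29 and -0.75. Whether matches go with the differences was not tested.

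**Figure D3:**
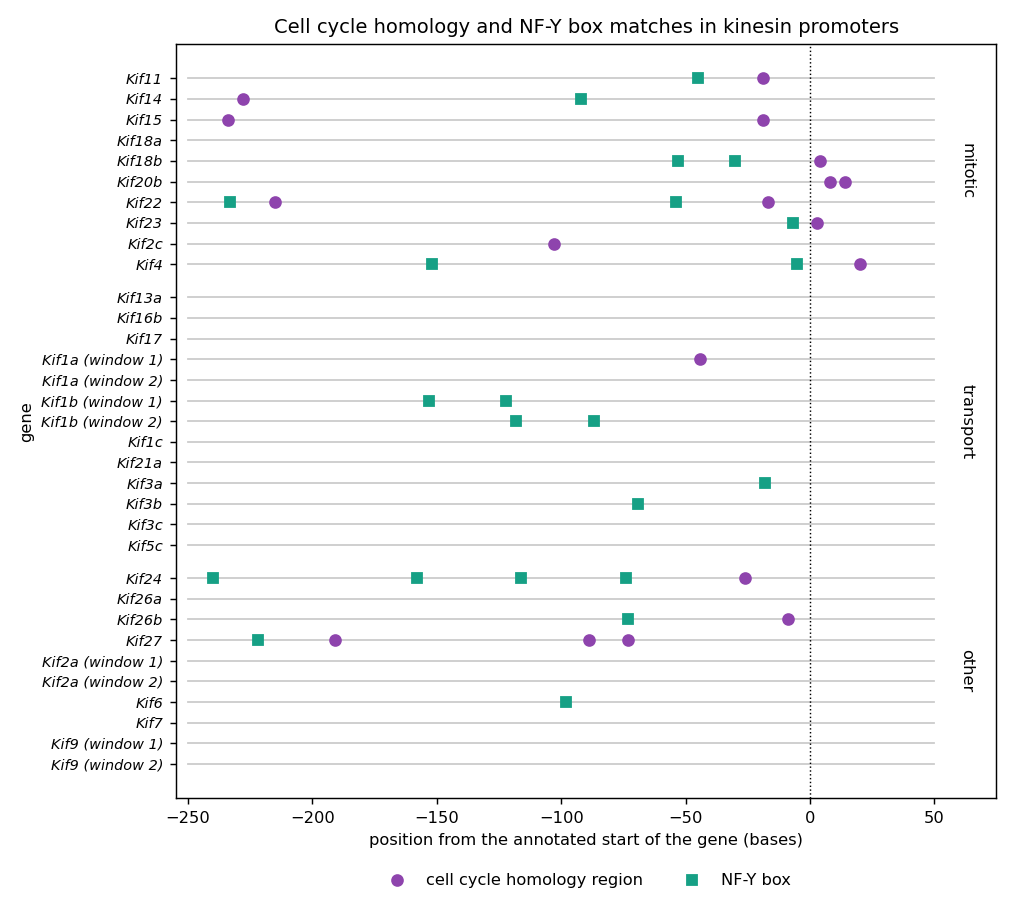
Positions of cell cycle homology and NF-Y box matches (horizontal axis, bases from the annotated start of the gene) in the promoter windows of 29 kinesins, with 1 line per window, grouped by role. In 7 mitotic kinesins a cell cycle homology match lies within 30 bases of the start, and 1 of 11 transport kinesins has such a match anywhere in its window.

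Other genes of the mitotic machinery fell too. Of 26 genes for the spindle and cytokinesis, all of which passed the minimum, 14 fell within replicates 2 and 3, beside 11.3% of all genes, and 0 rose, beside 9.77%. The 14 became 11 with no mean-variance trend and 1 with no minimum, and 0 passed over the 3 pairs. Their median difference was 0.01 (log2) in pair 1, -1.43 in pair 2 and -1.14 in pair 3. Cenpf, a kinetochore protein, was 6.38-fold lower with NGPF2 (limma adjusted p = 0.00535), at 132, 37.1 and 59.2 normalized counts in NGPF2 1, 2 and 3, against 111, 319 and 291 in vehicle 1, 2 and 3. Ckap2, a spindle microtubule protein, was 4.58-fold lower, Tpx2, the spindle assembly factor that activates Aurora A, 3.05-fold lower and Prc1, the microtubule crosslinker that recruits Kif4 to the midzone, 3.16-fold lower. Racgap1, the partner of Kif23, was 1.59-fold lower (limma adjusted p = 0.0166), at 492, 311 and 312 normalized counts in NGPF2 1, 2 and 3, against 495, 483 and 510.5 in vehicle 1, 2 and 3. Racgap1 was singled out as the partner of Kif23, after its values were seen.

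Markers of several cell types other than neurons were also lower with NGPF2 within replicates 2 and 3. None of the 3 kept endothelial and 4 kept ciliated cell markers passed there. The counts of markers that fell compare 2 libraries with 2 and stand beside 11.3% of all genes. Over the 3 pairs 0 genes passed. All 10 astrocyte markers fell within replicates 2 and 3, and their sums were 25914, 17407 and 14300 normalized counts in NGPF2 1, 2 and 3, against 22372, 61346 and 54956 in vehicle 1, 2 and 3. Of 6 neural progenitor markers, 4 fell, with sums of 7369, 4093 and 3823 normalized counts in NGPF2 1, 2 and 3, against 7481, 8778 and 10442 in vehicle 1, 2 and 3. Oligodendrocyte precursor markers (3 of 5 kept, 6 listed, fell) summed to 3616, 1254 and 1298 in NGPF2 1, 2 and 3, against 3507, 7285 and 6747 in vehicle 1, 2 and 3. Microglial markers (5 of 6 kept, 8 listed, fell) summed to 919, 27.5 and 62.8 in NGPF2 1, 2 and 3, against 802, 437 and 367 in vehicle 1, 2 and 3, with 3 and 2 markers at 0 in NGPF2 2 and 3. Fibroblast and mural markers (2 of 6 fell) summed to 1854, 145 and 144 in NGPF2 1, 2 and 3, against 2083, 488 and 457 in vehicle 1, 2 and 3, and 2 of 6 oligodendrocyte markers fell. The astrocyte, microglial and oligodendrocyte precursor markers kept were lower with NGPF2 in pairs 2 and 3 without exception. Among progenitor markers, Eomes and Hes5 were higher in both pairs without passing, 3 of 6 oligodendrocyte markers were higher in pair 3 and 1 of 6 fibroblast and mural markers in pair 2. The part of other cells in the kinesin differences was not tested. In bulk RNA, fewer cells of a type and less RNA per cell cannot be told apart.

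The vehicle libraries themselves differed between batches. The mean of vehicle 2 and 3 minus vehicle 1 had a median of 0.76 (log2) over the mitotic kinesins, with 9 of 11 higher in replicates 2 and 3, from -0.60 for Kif18a to 1.77 for Kif2c. Over the transport kinesins the median was -0.02, with 7 higher and 8 lower, from -0.74 for Kif13a to 0.81 for Kif17. Over the other kinesins it was -0.55, with 8 of 9 lower. Among NGPF2 libraries the same batch difference had a median of -0.96 over the mitotic kinesins, with 9 of 11 lower in replicates 2 and 3, and of -0.15 over the transport kinesins. The vehicle levels of the mitotic kinesins were thus mostly higher, and their NGPF2 levels mostly lower, in replicates 2 and 3 than in replicate 1. Marker lists did not all share the vehicle difference of the mitotic kinesins. The mean of vehicle 2 and 3 minus vehicle 1 had medians (log2) of 1.00 for astrocyte, 0.67 for oligodendrocyte and 0.22 for oligodendrocyte precursor markers. For progenitor, microglial, and fibroblast and mural markers the medians were -0.06, -1.18 and -1.75. These batch differences were not tested, and replicate 1 has 1 library per group.

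**Figure D4:**
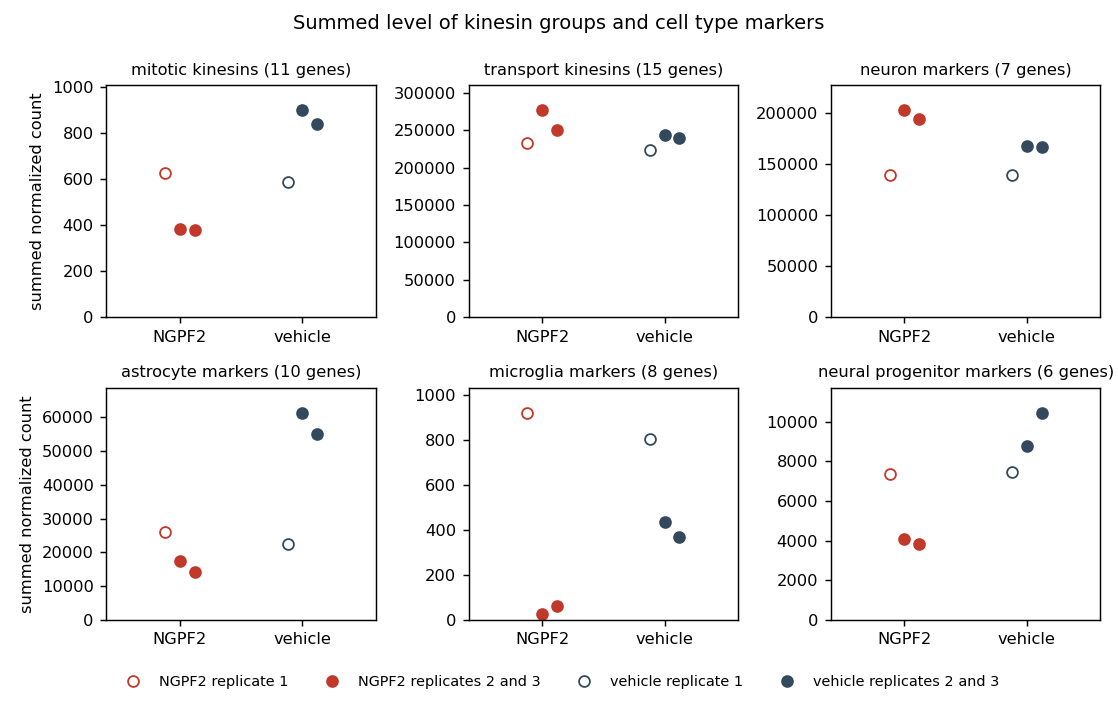
Summed normalized counts (vertical axes from 0, a scale for each panel) of the mitotic and transport kinesins and of neuron, astrocyte, microglia and neural progenitor markers in each library, NGPF2 left of vehicle, with open circles for replicate 1. Mitotic kinesins sum to 383 and 379 in NGPF2 2 and 3, against 898 and 839.7 in vehicle 2 and 3, and astrocyte markers to 17407 and 14300 in NGPF2 2 and 3, against 61346 and 54956 in vehicle 2 and 3.

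Transport kinesins took most kinesin counts, with sums of 232639, 276937 and 251161 normalized counts in NGPF2 1, 2 and 3, against 223675, 243191 and 239551 in vehicle 1, 2 and 3. Per kilobase of exon, Kif1a, the carrier of synaptic vesicle precursors, had the highest level of the 35, at 7822 ± 859 normalized counts per kb (SD over the 6 libraries). Kif5a and Kif5c, the neuronal heavy chains of conventional kinesin, followed at 6254 ± 976 and 5777 ± 670. The lowest library of Kif1a, at 6925 normalized counts per kb, lay above the highest of Kif5c, at 6447, while the range of Kif5a overlapped both. A group of next levels, Kif21b at 1936 ± 428, Kif1b at 1603 ± 203, Kif3a at 1520.3 ± 207 and Kif3c at 1467 ± 194, also could not be ordered beyond their spread. The highest mitotic level was that of Kif20a, at 20.3 ± 9.28 normalized counts per kb, and the lowest of all members was that of Kif14, at 2.17 ± 0.85.

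Among the 15 transport kinesins, 3 fell (Kif1c, Kif5b and Kif21a) and 1 rose (Kif21b) within replicates 2 and 3. That is 26.7% called, near the 21.1% of all genes (11.3% lower and 9.77% higher), and the split moved to 2 lower and 4 higher with median centring. With quantile scaling Kif1b and Kif5c were called as well, both lower. The groups did not overlap in that batch for 12 of the 15, with NGPF2 below vehicle for 5, beside 32.7% of all genes, and above it for 7, beside 32.3%. Over all 6 libraries only Kif3c had every NGPF2 value above every vehicle value, beside 4.11%.

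Kif1c, a motor for Golgi and integrin vesicles found in many tissues, had 1460.4, 685 and 696 normalized counts in NGPF2 1, 2 and 3, against 1413, 2162 and 2043 in vehicle 1, 2 and 3. The pair 1 libraries were nearly equal, and in pairs 2 and 3 the NGPF2 level lay below that of every vehicle library, with log2 differences of 0.05, -1.66 and -1.55 in pairs 1, 2 and 3. Within replicates 2 and 3 it was 3.04-fold lower with NGPF2 (log2 difference -1.60, SE 0.08, limma adjusted p = 0.00132), and over all 3 pairs the difference of -1.05 (SE 0.35) did not pass (adjusted p = 0.379). The effect in replicates 2 and 3 differed from that in replicate 1 by -1.65 (log2, SE 0.14, limma adjusted p = 0.016). That term compares with 1 library per group in replicate 1, which takes its spread from replicates 2 and 3, and without vehicle 2 or vehicle 3 it had an adjusted p of 0.335 or 0.345.

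Kif5b, the broadly made heavy chain of conventional kinesin, had 4972, 4084 and 4770.4 normalized counts in NGPF2 1, 2 and 3, against 4883, 6576 and 6065 in vehicle 1, 2 and 3. It was 1.43-fold lower with NGPF2 within replicates 2 and 3 (log2 difference -0.52, SE 0.10, limma adjusted p = 0.0251). Its neuronal relatives did not pass. Kif5a had 36091, 53881 and 46672 normalized counts in NGPF2 1, 2 and 3, against 36084, 45808 and 43750 in vehicle 1, 2 and 3, with a log2 difference of 0.16 (SE 0.09, limma adjusted p = 0.259). Kif5c had 35266, 41967 and 43853 normalized counts in NGPF2 1, 2 and 3, against 35405, 46043 and 45021 in vehicle 1, 2 and 3, with a log2 difference of -0.09 (SE 0.06, limma adjusted p = 0.391). The signs of Kif5a and Kif5c turned with another scaling of the libraries, and Kif5c was called lower with quantile scaling. Whether the 3 genes differ from one another was not tested.

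Kif21a and Kif21b, close relatives that restrain microtubule growth, moved in opposite directions. Kif21a had 4292, 3200.4 and 3399 normalized counts in NGPF2 1, 2 and 3, against 4340.5, 4426 and 4127 in vehicle 1, 2 and 3, and was 1.3-fold lower with NGPF2 within replicates 2 and 3 (log2 difference -0.37, SE 0.07, limma adjusted p = 0.0275). Kif21b, which acts in dendrites, had 19961, 31917 and 28163 normalized counts in NGPF2 1, 2 and 3, against 18854, 21478 and 21175 in vehicle 1, 2 and 3. It was 1.41-fold higher with NGPF2 (log2 difference 0.49, SE 0.08, limma adjusted p = 0.0172). Both kept their direction in each of the 14 alternatives tried, and in pair 1 their log2 differences were -0.02 for Kif21a and 0.08 for Kif21b. The call on Kif21a was also lost without NGPF2 2 and with median centring.

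**Figure D5:**
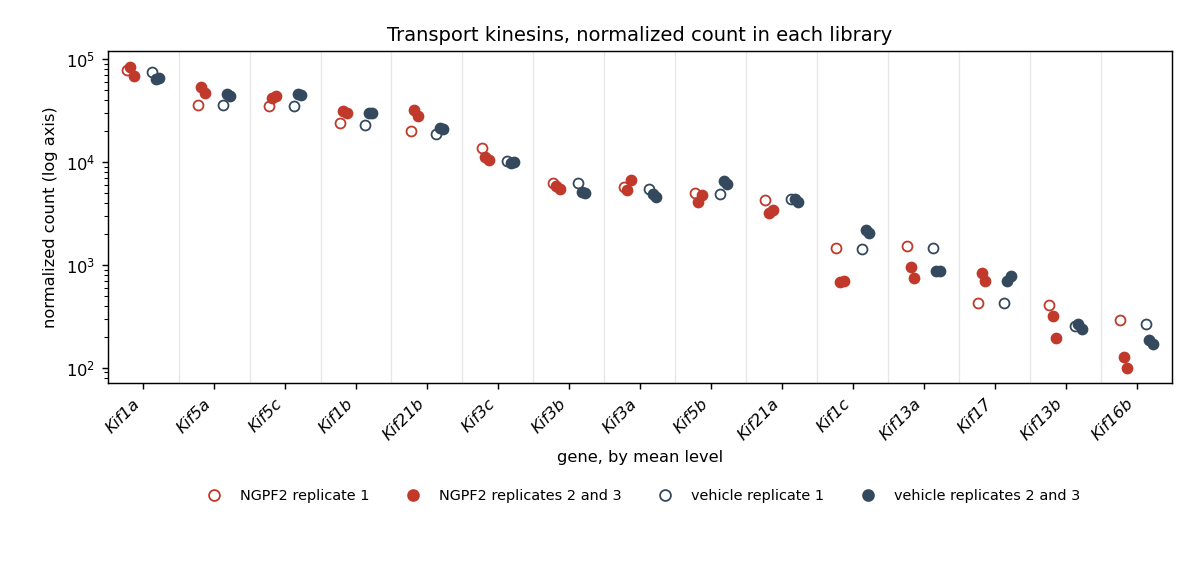
Normalized counts (log axis) of the 15 transport kinesins in each library, NGPF2 left of vehicle, with open circles for replicate 1 and filled circles for replicates 2 and 3. Kif1c stands apart with 685 and 696 in NGPF2 2 and 3, against 2162 and 2043 in vehicle 2 and 3.

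The remaining 11 transport kinesins did not pass. Kif1a had 78174, 85239 and 68783 normalized counts in NGPF2 1, 2 and 3, against 75267, 64607 and 65825 in vehicle 1, 2 and 3, a log2 difference of 0.23 within replicates 2 and 3 (SE 0.12, limma adjusted p = 0.216). Kif1b, which carries mitochondria and vesicle precursors, had a log2 difference of 0.03 (SE 0.06), with 24149, 31299 and 30378 normalized counts in NGPF2 1, 2 and 3, against 23171, 30372 and 29980 in vehicle 1, 2 and 3. The difference of Kif1b is thus small next to its standard error. For Kif1a, NGPF2 2 and NGPF2 3 lay further apart than vehicle 2 and vehicle 3. Both signs turned with quantile scaling, where Kif1b was called lower. The kinesin-2 motors, which serve cilia and axonal cargo, had log2 differences of 0.35 for Kif3a (SE 0.12), 0.17 for Kif3b (SE 0.07) and 0.14 for Kif3c (SE 0.07). Kif3a and Kif3b together spanned 5386 to 6707 normalized counts in NGPF2 libraries and 4579 to 6211 in vehicle libraries. Kif3c, the neuronal partner of Kif3a, had 13601, 11181 and 10517 normalized counts in NGPF2 1, 2 and 3, against 10220, 9721 and 9946 in vehicle 1, 2 and 3, so its widest gap was in pair 1. Exons of Kif3c overlap those of a pair of genes on the other strand, and its sign turned with quantile scaling.

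The less abundant transport kinesins varied more. Kif16b, an early endosome motor, had 294, 126 and 98.7 normalized counts in NGPF2 1, 2 and 3, against 264, 184 and 171 in vehicle 1, 2 and 3, a log2 difference of -0.67 within replicates 2 and 3 (SE 0.20, limma adjusted p = 0.0708). Kif13a, which carries the mannose-6-phosphate receptor, and its relative Kif13b had log2 differences of -0.04 (SE 0.14) and -0.02 (SE 0.26), at 194 to 1529 normalized counts in NGPF2 libraries and 239 to 1450.3 in vehicle libraries. Kif17, a dendritic motor for NMDA receptor vesicles, had 428, 842 and 689 normalized counts in NGPF2 1, 2 and 3, against 422, 697 and 787 in vehicle 1, 2 and 3, a log2 difference of 0.04 (SE 0.14). Its levels followed the batch rather than the treatment, and part of its exons overlap Sh2d5 on the same strand. The signs of Kif13a, Kif13b and Kif17 turned under other settings.

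Many partners of the transport kinesins rose. Of 26 light chains and cargo adaptors, 13 rose within replicates 2 and 3, beside 9.77% of all genes, and 0 fell, beside 11.3%. Over the 3 pairs 0 passed, with medians of 0.02 (log2), 0.27 and 0.21 in pairs 1, 2 and 3. The count moved with the scaling of the libraries, to 5 higher and 0 lower with quantile scaling, 6 and 2 with library totals and 16 and 1 with median centring, and to 10 and 2 with the replicate number as a block. With no minimum or no mean-variance trend it was 0 and 0. Ppfia3, a liprin that links Kif1a to active zone cargo, was 1.48-fold higher with NGPF2 (limma adjusted p = 0.0073), at 4547, 10244 and 9636 normalized counts in NGPF2 1, 2 and 3, against 4540.4, 6793 and 6628 in vehicle 1, 2 and 3. Clstn1, calsyntenin, which docks kinesin light chains on vesicles, was 1.42-fold higher, and Apba1 and Lin7b, which tie Kif17 to its receptor cargo, were 1.37-fold and 1.57-fold higher. Counts of neuron markers that rose or fell stand beside the same 9.77% and 11.3% of all genes. General neuron markers rose in 4 of 7 cases and fell in 0 within replicates 2 and 3, with sums of 139150, 202287 and 193952 normalized counts in NGPF2 1, 2 and 3, against 138893, 167804 and 166161 in vehicle 1, 2 and 3. Excitatory neuron markers (3 of 7 rose, 2 fell) summed to 28493, 119709.5 and 110084 in NGPF2 1, 2 and 3, against 29011, 82861 and 85289.9 in vehicle 1, 2 and 3. Inhibitory neuron markers (4 of 7 rose, 1 fell) summed to 108508, 63981 and 63020.5 in NGPF2 1, 2 and 3, against 113804, 46272 and 49549 in vehicle 1, 2 and 3. Excitatory and inhibitory sums thus differed more between the batches than between the groups of a batch. The part of these neuron types in the adaptor and kinesin differences was not tested.

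Dynein, the motor that walks the other way, gave a mixed count. Of 26 dynein, dynactin and dynein adaptor genes, 6 rose within replicates 2 and 3, beside 9.77% of all genes, and 4 fell, beside 11.3%. The count became 10 higher and 3 lower with median centring, and 1 higher and 1 lower with no minimum or no mean-variance trend. Over the 3 pairs 0 passed, and the medians were 0.01 (log2), 0.17 and 0.04 in pairs 1, 2 and 3. Dctn1, the large dynactin subunit, was 1.47-fold higher with NGPF2, and Dync1i1, the intermediate chain made mainly in neurons, 1.41-fold higher. Nde1, a dynein regulator of dividing progenitors, was 3.57-fold lower (limma adjusted p = 0.00405), at 229, 100.4 and 91.5 normalized counts in NGPF2 1, 2 and 3, against 209, 373 and 318.5 in vehicle 1, 2 and 3. Dynlt3, a dynein light chain, was 1.8-fold lower.

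Of the 9 other kinesins, 1 rose (Kif26a) and 1 fell (Kif7) within replicates 2 and 3. That is 22.2% called, near the 21.1% of all genes. Kif26a, known in mouse as a brake on Ret signalling, had 379, 194 and 169 normalized counts in NGPF2 1, 2 and 3, against 356, 104 and 116 in vehicle 1, 2 and 3. It was 1.64-fold higher with NGPF2 (log2 difference 0.71, SE 0.18, limma adjusted p = 0.0471), a call lost without NGPF2 2 or NGPF2 3, with library total scaling and with the replicate number as a block (adjusted p = 0.0683, between 0.0158 and 0.259 over the alternatives). All 4 libraries of replicates 2 and 3 lay below both libraries of replicate 1, a wider gap than that between the groups. Kif26b, its closest relative, had 942, 239 and 223 normalized counts in NGPF2 1, 2 and 3, against 891, 308 and 262 in vehicle 1, 2 and 3, and showed the same split by batch with a log2 difference of -0.30 within replicates 2 and 3 (SE 0.15, limma adjusted p = 0.212).

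Kif7, which regulates Hedgehog signalling at the tip of the cilium, had 88.3, 0 and 7.18 normalized counts in NGPF2 1, 2 and 3, against 93.5, 58.9 and 52.5 in vehicle 1, 2 and 3. These are 138, 0 and 4 counts in NGPF2 libraries, against 145, 66 and 44 in vehicle libraries, and the 0 in NGPF2 2 allows a level of up to 3.59 normalized counts (3 counts). The groups lay far apart in replicates 2 and 3 and close together in replicate 1. The fitted log2 difference was -4.31 (SE 1.03, limma adjusted p = 0.0436), and because one library is at 0 its size depends on the pseudocount, with -4.84 at a pseudocount of 0.5 and -2.96 at 5. It was -5.82 without NGPF2 3 and -2.79 without NGPF2 2. The call was lost with a pseudocount of 0.5 (adjusted p = 0.0619, between 0.0113 and 0.275 over the alternatives). Its exons overlap a pair of genes on the other strand.

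Kif2a, a microtubule depolymerase that limits axon branches, was the most abundant of the 9, with 4236, 3177 and 3771 normalized counts in NGPF2 1, 2 and 3, against 4026, 3096 and 3111 in vehicle 1, 2 and 3, and did not pass (log2 difference 0.16, SE 0.10, limma adjusted p = 0.313). Its exons overlap those of Dimt1 on the other strand. Kif2a, a depolymerase like Kif2c, was not on the mitotic list used here. Its log2 differences in pairs 1, 2 and 3 were 0.07, 0.04 and 0.28. Kif9, a cilium kinesin, had 111, 163 and 187 normalized counts in NGPF2 1, 2 and 3, against 134, 224 and 209 in vehicle 1, 2 and 3. It was lower with NGPF2 in each pair, but not past the test (log2 difference -0.31, limma adjusted p = 0.219). Kif19a, which trims ciliary microtubules, had 21.1, 7.17 and 3.59 normalized counts in NGPF2 1, 2 and 3, against 30.3, 20.5 and 20.3 in vehicle 1, 2 and 3, with a limma adjusted p of 0.0632. The last 3, Kif27, Kif24 and Kif6, had between 8.97 and 77.2 normalized counts in NGPF2 libraries and between 25 and 66.1 in vehicle libraries, and their groups overlapped. None of the 4 kept markers of ciliated cells passed, with sums of 757, 759 and 682 normalized counts in NGPF2 1, 2 and 3, against 793, 828 and 838.5 in vehicle 1, 2 and 3.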

How the data were processed

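Messenger RNA was selected on oligo(dT) beads from total RNA, fragmented and made into amplified libraries (per the labels' protocols). Builds and tools in the submitters' processing notes, listed there without a role, are mm10, DESeq 1.22.1, Cuffnorm, STAR 2.5 and FastQC. Annotation, counter and strandedness: not given in the sources used here. The authors deposited log2 values of a normalized count plus 1, not FPKM as the table is named: whole counts came back for 100% of values in each library (tolerance 0.01 of a count). The tests used these values unchanged (their pseudocount of 1 understates the folds of low genes) for the 16653 genes with a mean of at least 10 normalized counts.

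The columns of replicates 2 and 3 carry the library names of the titles. That leaves 1 column in each group, which was read as replicate 1 from its initial and by elimination, although its digit is 3. Same-numbered NGPF2 and vehicle libraries deviated together, with correlations over genes of 0.59, 0.30 and 0.33 for numbers 1, 2 and 3. Mismatched numbers in the same batch were as high, at 0.34 for NGPF2 3 with vehicle 2 and 0.32 for NGPF2 2 with vehicle 3. Mismatches across batches ran from -0.45 to -0.42, so the values for numbers 2 and 3 do not single out same-numbered pairs. Within replicates 2 and 3 alone the correlation was -0.01, so the numbers were used as a block only over all 3 pairs, where the series states the pairing. No libraries of one group agreed within counting noise (chi-square per degree of freedom of at least 14.0), so none was merged as a possible second deposit of another. That check does not show that they come from separate cultures.

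limma 3.58.1 in R 4.3.3 fitted treatment with the replicate number as a block over 6 libraries, treatment alone within replicates 2 and 3, and the batch by treatment term, all with a mean-variance trend, 2-sided tests and Benjamini-Hochberg adjustment over all genes kept (threshold 0.05). The scripts were tested on simulated data. Python 3.11.15 with matplotlib 3.10.9 made the figures. Kinesins and role, partner and marker lists were chosen with earlier results of these data known. Full values are given for members that passed within replicates 2 and 3, for the 4 most abundant per kilobase of each role and for others near the threshold, and up to 4 partner genes of smallest p are named per list. Intervals for counts of 0 cover counting error only.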

Additional observations from a re-analysis of the deposited data

Results flagged for a closer look

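The effect of NGPF2 on Kif1c differed between the batches of libraries: the log2 difference in replicates 2 and 3 minus that in replicate 1 was -1.65 (SE 0.14, limma adjusted p = 0.016). The normalized counts were 1460.4, 685 and 696 in NGPF2 1, 2 and 3, against 1413, 2162 and 2043 in vehicle 1, 2 and 3, so the vehicle libraries differed between batches as well. Kif1c was the only one of the 35 kinesins whose difference between batches passed. That is 2.86% of the members, near the 2.49% of all genes. The call was lost with no mean-variance trend and without vehicle 2 or vehicle 3.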

How the results depend on the processing

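Over the 3 pairs, 0 members were called under each alternative except without replicate 1, where 1 was higher and 10 were lower, giving ranges of 0 to 1 higher and 0 to 10 lower over the pairs left out in turn. Without the replicate block that count was also 0.

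Within replicates 2 and 3, the 2 higher calls became 0 with no minimum, 1 with library total scaling, 5 with median centring, 0 with no variance trend and 1 with the replicate block. Leaving out 1 library in turn gave 0 to 2 higher. The 9 lower calls became 2 with no minimum and 4 with no variance trend, and 0 to 8 without 1 library. With the replicate block 11 members were called, 10 of them shared with the fit without it. Library total scaling shifted the median of all genes by -0.13 (log2) and moved the calls over all genes to 982 higher and 2659 lower, median centring shifted it by 0.11 and gave 2892 and 1650, and the values as deposited gave 1627 and 1884.

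The single lower call for the difference between batches became 2 with no minimum, 0 with no variance trend and 4 with voom (Kif1c, Kif11, Kif7 and Kif2c), and 0 to 2 without 1 library.

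The sign of the difference turned in 12 of 35 members, none of them called. With library total scaling it became -0.0958 (log2) for Kif1b and -0.0864 for Kif17. With median centring it became 0.0710 for Kif24, 0.0235 for Kif5c, 0.0709 for Kif13a and 0.0849 for Kif13b. With quantile scaling it became 0.0787 for Kif23, 0.303 for Kif24, -0.0473 for Kif1a and -0.00432 for Kif5a. In that setting it also became -0.219 for Kif1b (called lower there), -0.0429 for Kif3c and 0.175 for Kif13b. With voom it became 0.0165 for Kif24 and 0.0240 for Kif13b. Leaving out 1 library in turn gave -0.102 to 0.813 for Kif27, -0.523 to 0.446 for Kif24, -1.42 to 0.42 for Kif6, -0.372 to 0.323 for Kif13b, -0.217 to 0.140 for Kif13a and -0.104 to 0.184 for Kif17. The other 23 members, 10 of the 11 mitotic kinesins among them, kept their sign in each alternative tried. The causes were not tested.

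The mitotic kinesins rest on low counts, and the test within replicates 2 and 3 has 2 libraries a group. The simulated data drew changed genes from all genes kept. What size of difference is detectable at the low counts of the mitotic kinesins was not tested.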
